A study of Mus musculus with 4 samples.

Results

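Mast cell transcripts in cultured mouse gonocytes were described through 10 genes, Mcpt1, Mcpt2, Mcpt4, Mcpt8, Cma1, Cpa3, Tpsb2, Fcer1a, Ms4a2 and Hdc. The set was chosen by the change of Mcpt1, whose signal was far lower with retinoic acid (RA) than with its vehicle, and the question was whether other mast cell genes moved with it. The fall of Mcpt1 chose the set, so it is given as a description with no test. Every probe set annotated to a single one of these genes was used, 13 of the 34945 probe sets that name 1 gene, and these genes are 10 of the 18193 so named. Of the 13 probe sets, 11 passed a filter on low signal, set at the 40th percentile of the mean log2 signal (a signal of about 15.5). A probe set of Fcer1a and the dimmer probe set of Ms4a2 did not pass.

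The cells were THY1+ gonocytes, male germ cells sorted with magnetic beads from testes at 2 days post partum, and were cultured for 8 h with no serum, growth factors or feeder layer. There were 2 RA samples, at 100 nM in ethanol, and 2 vehicle samples, with ethanol alone. RNA of each sample was amplified and hybridised to 1 Affymetrix Mouse Genome 430 2.0 array. The labels name no strain or genotype and give no separate animal or culture for each sample. The p-values below therefore cover the spread between these 4 samples alone, and that spread may be technical.

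Mast cells are tissue-resident immune cells whose granules hold histamine, heparin and large amounts of proteases, which are released when antigen cross-links IgE on the high-affinity IgE receptor. The proteases fall into chymases, tryptases and a carboxypeptidase. Mouse mast cells of mucosal surfaces are known for Mcpt1 and Mcpt2, those of connective tissue for Mcpt4, Cma1, Tpsb2 and Cpa3, and basophils for Mcpt8. Cma1, Mcpt1, Mcpt2, Mcpt4 and Mcpt8 lie in a cluster of related serine protease genes on mouse chromosome 14, in that order, with Ctsg and granzyme genes after them.

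The sequences just before the gene starts are shown for Mcpt1, for Mcpt4, the connective tissue chymase that also lay lower with RA, and for Cma1, the neighbouring chymase whose groups overlapped. They are the 250 bases before the start in RefSeq (GRCm38.p6), on the coding strand. Capitals mark TGATAA, a form of the GATA motif, and other forms are not marked. Mcpt1 is chr14:56017714-56017963 (plus strand), Mcpt4 is chr14:56062311-56062560 (minus strand) and Cma1 is chr14:55944676-55944925 (minus strand).
Mcpt1: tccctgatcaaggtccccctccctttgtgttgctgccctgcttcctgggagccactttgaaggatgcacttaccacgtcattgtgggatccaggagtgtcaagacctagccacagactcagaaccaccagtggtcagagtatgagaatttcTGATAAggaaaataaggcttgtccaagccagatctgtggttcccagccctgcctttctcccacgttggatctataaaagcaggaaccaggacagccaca
Mcpt4: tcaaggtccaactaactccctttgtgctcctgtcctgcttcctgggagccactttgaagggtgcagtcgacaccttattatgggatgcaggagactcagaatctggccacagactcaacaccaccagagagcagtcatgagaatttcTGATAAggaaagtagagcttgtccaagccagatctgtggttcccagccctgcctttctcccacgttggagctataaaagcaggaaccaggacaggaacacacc
Cma1: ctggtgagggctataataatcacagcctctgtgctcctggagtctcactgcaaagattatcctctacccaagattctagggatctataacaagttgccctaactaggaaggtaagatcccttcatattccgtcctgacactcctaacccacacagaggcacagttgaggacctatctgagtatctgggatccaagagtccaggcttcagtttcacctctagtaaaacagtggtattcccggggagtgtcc

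The windows of Mcpt1 and Mcpt4 were alike. In a global alignment 81.5% of the columns were identical, with an unbroken identical run of 53 bases, while the other 27 pairs among the 8 members with a window (all but Mcpt2 and Tpsb2) had 42.3% to 50.5%. TGATAA, a form of the site that GATA factors bind, was found on either strand in 2 of 8 member windows. These were the windows of Mcpt1 and Mcpt4, 99 and 103 bases before the start, and 7.94% of all 32851 windows held it. Other forms of the site were not counted. Among them AGATAA lies in the windows of Cpa3 and Ms4a2, and on the other strand of that of Fcer1a. AGATAG lies on the other strand of the window of Cma1, and TGATAG lies in that of Hdc. TGATAA therefore does not show which members have a GATA site. The half-site AGGTCA, which RA receptors bind as a repeat, was found in 0 of 8 member windows and in 14% of all. Other forms of this half-site were not counted, such as GGGTCA, which lies in the window of Cpa3. The count therefore does not show that the members lack a half-site. The E-box CANNTG, bound by Mitf and other helix-loop-helix factors, was found in 5 of 8 and in 66.2% of all. No match of these motifs overlapped another. The matches describe letters in this window only.

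Mcpt1, the mucosal mast cell chymase, had signals of 64.5 and 75.6 on RA replicates 1 and 2, against 305 and 411 on vehicle replicates 1 and 2. Both RA arrays lay far below both vehicle arrays, and the level was 4.8-fold lower with RA on the log2(signal + 5) scale (log2 change −2.26 ± 0.24, SE, n = 2 per group). This scale, used for all changes below, understates those of dim genes. In RNA of a mixed sample, fewer mast cells and less of the transcript per mast cell cannot be told apart.

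Of the other 9 genes, 3 also had both RA arrays below both vehicle arrays, namely Mcpt4, Mcpt8 and Ms4a2, and 6 overlapped. Of all 18193 genes, represented by their brightest probe sets, 13.6% had both RA values under both vehicle values and 13.8% had both over them. A negative log2 change was found for 8 of the other 9 genes, against 48.8% of all genes. A change of −1 or lower was found for Mcpt1, which the choice of the set fixed, and for Ms4a2, against 0.407% of all genes. None of the 10 probe sets that entered the fit, from 8 of these 9 genes, passed Benjamini-Hochberg adjustment in limma, where 0% of 27022 probe sets was called in either direction (adjusted p = 1 for each member tested). At an unadjusted p under 0.05 there were 3, for Mcpt4, Ms4a2 and the dimmer probe set of Hdc, all lower. Of all probe sets, 1.65% were lower and 1.1% higher at that level. The brighter probe set of Hdc, from which the gene is otherwise read, had an unadjusted p of 0.105 in limma. Ms4a2 is among the 3 although it passed the filter only through its vehicle arrays. The median log2 change of the other 9 genes was −0.36, against 0.01 over all genes. For 1 gene on 2 and 2 arrays the smallest two-sided p of an exact permutation test is 0.333.

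**Figure D1:**
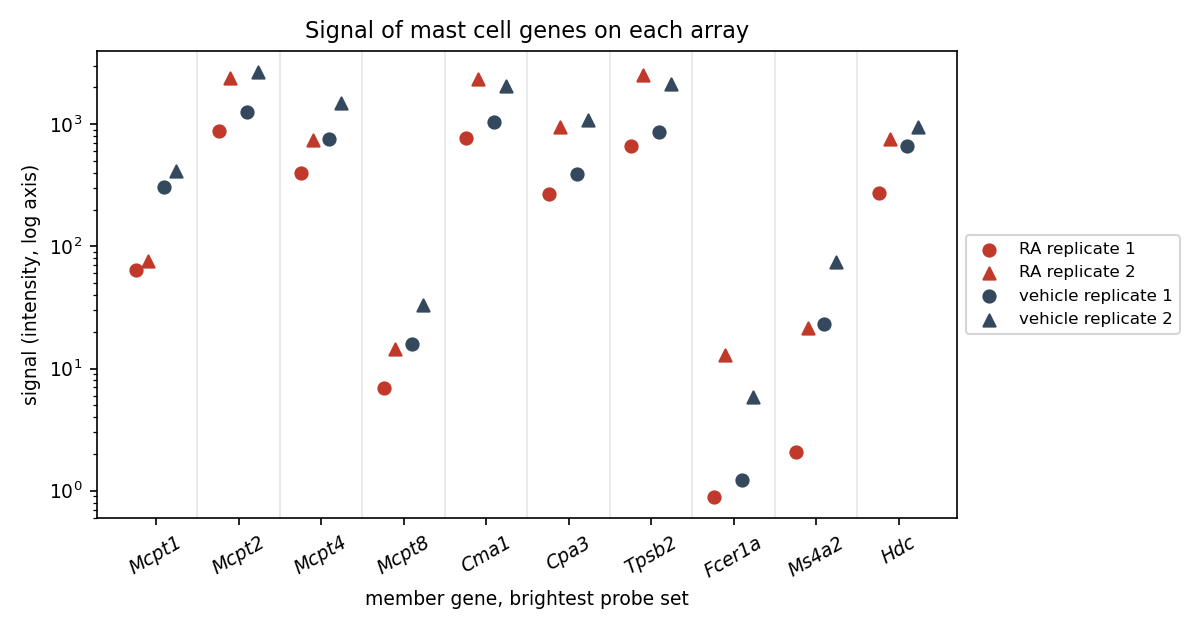
Signal of the brightest probe set of each mast cell gene on the 4 arrays, on a log axis, with RA in red to the left of vehicle in dark blue, circles for replicate 1 and triangles for replicate 2. For Mcpt1 the RA signals of 64.5 and 75.6 lie far under the vehicle signals of 305 and 411, while for Cma1, Cpa3 and Tpsb2 replicate 2 lies above replicate 1 in both groups and the groups overlap.

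Among the chymases, Mcpt4 had signals of 397 and 749 with RA, against 757 and 1487 with vehicle. It was 1.94-fold lower with RA (log2 change −0.95 ± 0.39, 95% interval −1.85 to −0.06; unadjusted p = 0.0392 and adjusted p = 1 in limma). The gap between the groups was narrow, since RA replicate 2 reached 749 and vehicle replicate 1 stood at 757, and with equal array medians the groups overlapped. Without 1 array in turn its log2 change lay between −1.44 and −0.47.

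Mcpt2, the mucosal protease next to Mcpt1 in the cluster, had signals of 886 and 2370.1 with RA, against 1258 and 2673 with vehicle. The groups overlapped (log2 change −0.34 ± 0.50, 95% interval −1.49 to 0.81). Cma1, a connective tissue chymase with elastase activity in the mouse, had 777 and 2334 with RA, against 1033 and 2071 with vehicle (−0.12 ± 0.52, interval −1.31 to 1.08). For both genes the RA replicates spanned more than the difference between the groups. Both intervals hold 0.

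Tpsb2, a tryptase stored with heparin, had signals of 661 and 2511 with RA, against 855 and 2149 with vehicle. The RA arrays held both the lowest and the highest value (log2 change −0.07 ± 0.62, interval −1.52 to 1.37). Its second, dim probe set also overlapped, with 10.3 and 25.2 against 12.4 and 30.1 (−0.20 ± 0.46). Cpa3, the mast cell carboxypeptidase, had 267 and 949 with RA, against 393 and 1073 with vehicle (−0.36 ± 0.61, interval −1.78 to 1.06). Here too the groups overlapped.

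The sign of these 4 proteases depended on the arrays used. Without RA replicate 1 the log2 changes were 0.37 for Mcpt2, 0.67 for Cma1, 0.89 for Tpsb2 and 0.54 for Cpa3. Without RA replicate 2 they were −1.05, −0.91, −1.03 and −1.27 in the same order. Without vehicle replicate 1 they were −0.88, −0.62, −0.73 and −1.08, and without vehicle replicate 2 they were 0.20, 0.38, 0.59 and 0.36. For Mcpt1 the change lay between −2.48 and −2.05 with 1 array left out. Its sign could not change there, because both RA signals lay below both vehicle signals, the fall for which it was chosen.

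Mcpt8, the basophil member of the cluster, was dim, with signals of 6.93 and 14.4 with RA, against 16 and 33.2 with vehicle. The groups did not overlap (log2 change −0.90 ± 0.40, interval −1.83 to 0.04; unadjusted p = 0.0577 in limma). It passed the filter through the vehicle arrays, since both RA signals were below the filter level. Of the markers of basophils and eosinophils listed beside it, 0 of 6 measured were above the filter, with summed signals of 53.9 and 47 with RA and 52.4 and 40.9 with vehicle.

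Of the chains of the IgE receptor, alpha and beta had low signals. The gamma chain gene Fcer1g, which other immune receptors share, had 284 and 608 with RA, against 399.6 and 764 with vehicle, and overlapped. Ms4a2, the beta chain, had signals of 2.09 and 21.4 with RA, against 23 and 74.9 with vehicle, and the groups lay close without overlap. Like Mcpt8 it passed the filter through its vehicle arrays, as its mean log2 signal was 3.77 with RA and 5.56 with vehicle against a filter level of 4.35, so its p adds no support. The log2 change was −1.79 ± 0.68 (interval −3.36 to −0.22; unadjusted p = 0.0305 and adjusted p = 1 in limma), −1.08 with a pseudocount of 20 and −2.36 with a pseudocount of 1. Without 1 array in turn it lay between −2.74, without RA replicate 2, and −0.84, without RA replicate 1. Without vehicle replicate 1 it was −2.55 and without vehicle replicate 2 it was −1.03. The dimmer probe set of Ms4a2 had 1.76 and 6.1 with RA, against 5.91 and 25.5 with vehicle, which overlapped. Fcer1a, the alpha chain that binds IgE, had 0.884 and 13 with RA, against 1.22 and 5.84 with vehicle, below the filter level on all 4 arrays, and no direction is read from it.

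Hdc, which makes histamine from histidine, was read by a pair of probe sets. The brighter had signals of 274 and 763 with RA, against 668 and 956 with vehicle (log2 change −0.80 ± 0.43, interval −1.80 to 0.21; unadjusted p = 0.105 in limma). The other had 105 and 229 with RA, against 219 and 504 with vehicle (−1.07 ± 0.45, interval −2.12 to −0.03; unadjusted p = 0.0451 in limma). RA replicate 2 lay above vehicle replicate 1 on both, so the groups overlapped. Without 1 array in turn the change of the brighter lay between −1.53, without RA replicate 2, and −0.07, without RA replicate 1.

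**Figure D2:**
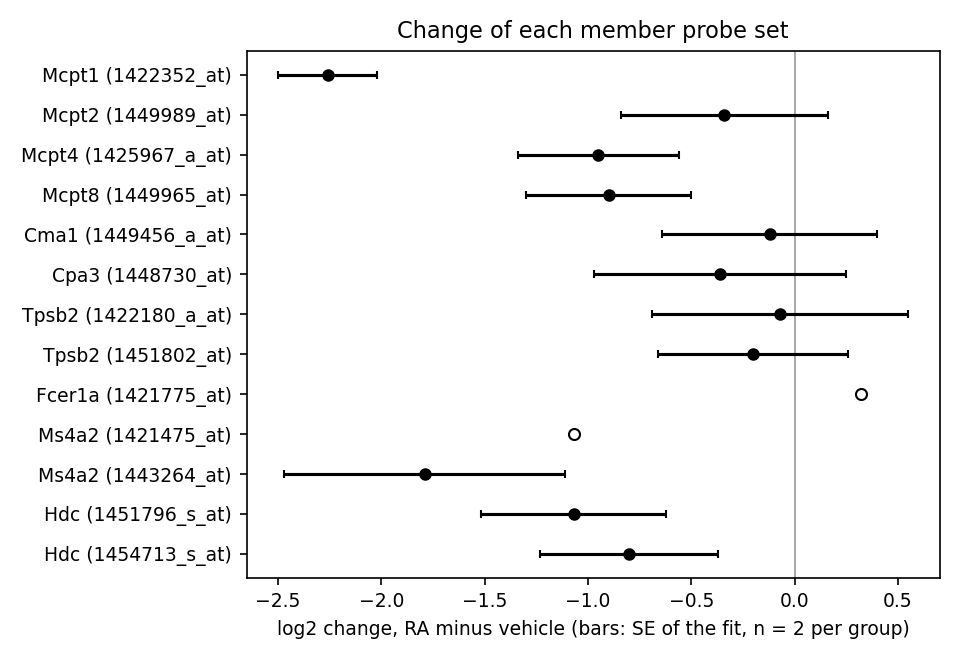
Log2 change (RA minus vehicle) of the 13 member probe sets, with bars for the SE of the fit (n = 2 per group); open circles are the 2 probe sets below the signal filter, which have no SE. Mcpt1 lies at −2.26, Ms4a2, Mcpt4, Mcpt8 and both probe sets of Hdc lie between −1.79 and −0.80, and Mcpt2, Cma1, Cpa3 and Tpsb2 lie between −0.36 and −0.07 with bars across 0.

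The 10 genes had a pattern across replicates in common. Replicate 2 was brighter than replicate 1 in both groups for 13 of 13 probe sets and 10 of 10 genes, where 30.5% of all genes showed this. Among the 11 probe sets above the filter, replicate 2 over replicate 1 was between 1.17 and 10.2 with RA and between 1.35 and 3.26 with vehicle. Mcpt1 had the lowest of these ratios in both groups, 1.17 and 1.35, and Tpsb2, for one, had 3.8 with RA and 2.51 with vehicle. The replicate difference of Mcpt1 was therefore smaller than that of each other member above the filter. Mcpt1 was chosen from these same values by its difference between the groups, which favours a gene with close replicates. The smaller difference is therefore a description only.

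To read the members against each other, the log2 value of each gene was centred on its mean over the arrays and the median of the other 9 members on the same array was taken off. This comparison was added after the values were seen, has no test, and shows unequal change only. Mcpt1 then stood at −0.31 and −1.56 on the RA arrays, against 1.29 and 0.63 on the vehicle arrays, a difference of −1.90. Ms4a2 stood at −0.91 and −0.48 with RA, against 0.51 and 0.94 with vehicle (−1.42). Mcpt4 stood at 0.06 and −0.56 with RA, against 0.37 and 0.25 with vehicle (−0.56). For these 3 genes both RA values lay below both vehicle values. For Mcpt2, Cma1 and Tpsb2 both RA values lay above both vehicle values, with differences of 0.43, 0.65 and 0.66. Fcer1a, below the filter, is plotted without a reading. Mcpt8, Cpa3 and Hdc overlapped. Of all other genes, 0.192% lay lower and 7.38% higher against the median of the 10 members in this way. That median includes Mcpt1, chosen for its fall, and the median log2 change of the 10 was −0.58, so other genes were unlikely to lie lower. Members read against each other tend to fall on both sides by construction. The shares are therefore no measure of how unusual a member is.

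**Figure D3:**
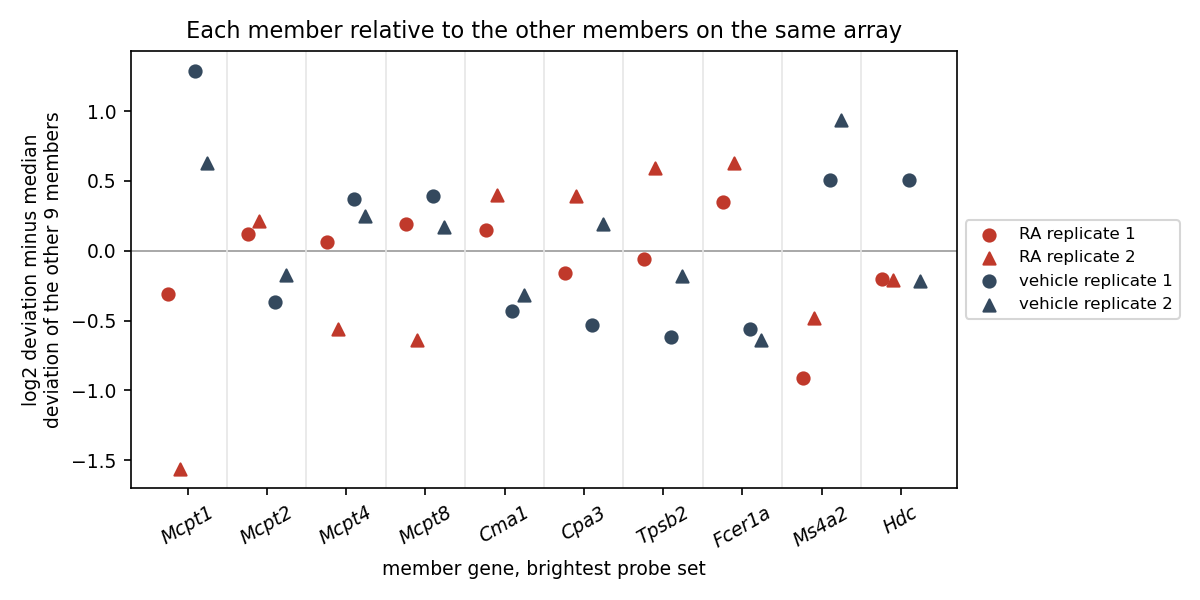
Centred log2 value of each member minus the median of the other 9 members on the same array, with RA in red to the left of vehicle in dark blue, circles for replicate 1 and triangles for replicate 2. Mcpt1, at −0.31 and −1.56 with RA and 1.29 and 0.63 with vehicle, and Ms4a2 lie lower with RA than with vehicle, while Cma1, Tpsb2 and Mcpt2 lie higher with RA than with vehicle.

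Set against single members, the log2 value of Mcpt1 minus that of the member differed, RA minus vehicle, by −2.19 for Tpsb2, −2.14 for Cma1, −1.92 for Mcpt2 and −1.90 for Cpa3. The difference was −1.47 for Hdc, −1.36 for Mcpt8, −1.31 for Mcpt4 and −0.47 for Ms4a2. That for Fcer1a, below the filter, is counted but not read. The RA and vehicle values did not overlap for 8 of the 9 differences, all but that from Ms4a2. Mcpt1 was chosen for its fall, and the same held for 99.8% of all other genes, so these differences give sizes and are no evidence of a pattern of its own.

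The genes whose pattern over the 4 arrays was most like that of Mcpt1 were not among the members. By the distance between centred log2 profiles, over 13010 other genes above the filter, they were Slc35a4 (0.77, with signals of 117 and 98.9 with RA against 384 and 341 with vehicle), Cbln2 (0.93), Adpgk (0.94), Slc6a4 (0.97) and Sfrp4 (1.07). Among members Mcpt8 (1.44) ranked 52nd, Mcpt4 (1.45) 55th, Ms4a2 (1.49) 68th and Hdc (1.71) 229th. Mcpt2 ranked 2778th, Cpa3 6043rd, Cma1 7511th and Tpsb2 10956th. Of the nearest genes, Slc6a4 is on the list of mast cell mediators read below. Mcpt8 and Ms4a2 passed the filter through their vehicle arrays, which limits what their ranks mean. Because Mcpt1 was chosen for its fall, nearness to its profile in large part sorts genes by their own fall. The log2 changes of the nearest genes lay between −1.70 and −1.24. The ranks are therefore a description only.

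Genes of the wider mast cell programme were read from 4 lists with 34 genes, 28 of them measured. Of the 28, 2 were lower on both RA arrays than on either vehicle array, 1 was higher, and 25 overlapped, against 13.6% below over all genes. None passed adjustment in limma, and 2 had an unadjusted p under 0.05. Their median log2 change was −0.16. Replicate 2 was brighter in both groups for 22 of the 28.

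Of granule proteins, 5 of 5 measured overlapped. The tryptase gene Tpsab1 had 235 and 1054 with RA, against 248 and 967 with vehicle (log2 change 0.02 ± 0.75). The proteoglycan core protein gene Srgn had 811 and 1634 with RA, against 892 and 1485 with vehicle (0.00 ± 0.37). For both genes the difference between the groups was smaller than the spread between replicates.

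Of amine and lipid mediator genes, 1 of 7 measured was lower, 1 higher and 5 overlapped. The lower was Slc6a4, the serotonin transporter, with 49.9 and 38.9 with RA, against 92.4 and 177 with vehicle (log2 change −1.44 ± 0.35; unadjusted p = 0.00346 and adjusted p = 1 in limma). Tph1, which makes the serotonin precursor, overlapped with 198 and 831 against 319.5 and 862 (−0.37 ± 0.66), and so did Alox5ap, a leukotriene synthesis protein, with 59.3 and 125 with RA against 104 and 218 with vehicle (−0.77 ± 0.43). The higher gene was Ltc4s, with signals under 0.7 on every array, which carry no information on direction.

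Of receptor and signalling genes, 1 of 11 measured was lower and 10 overlapped. The lower was Enpp3, an ectonucleotidase of activated mast cells and basophils, with 58.4 and 60 with RA, against 123 and 79.8 with vehicle (log2 change −0.70 ± 0.29; unadjusted p = 0.0444 in limma). A dimmer Enpp3 probe set above the filter overlapped, with 32.3 and 101 with RA, against 78.8 and 84.1 with vehicle (−0.46), and another was lower (−0.68). Mrgprb1, a receptor of the Mrgpr family, had 13.2 and 57.2 with RA, against 29.3 and 108 with vehicle (−0.89 ± 0.68). Kit, the stem cell factor receptor, which germ cells also use, had 165 and 234 with RA, against 83 and 188 with vehicle (0.63 ± 0.37). Of the transcription factor genes, 5 of 5 overlapped, with Gata1 at −0.50 ± 0.48, Tal1 at −0.44 ± 0.45 and Mitf at −0.19 ± 0.22.

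In the protease cluster itself, 0 of the 8 listed granzyme and cathepsin genes measured were lower on both RA arrays. The pseudogene Mcpt-ps1, which was not on the list, was lower and below the filter. Gzmb, a granzyme of cytotoxic lymphocytes and some mast cells, was higher, with 89.2 and 117 with RA, against 24.4 and 56.3 with vehicle (log2 change 1.34 ± 0.39; unadjusted p = 0.00884 and adjusted p = 1 in limma). Ctsg, the cathepsin G gene, overlapped with 12.3 and 31.1 with RA, against 12.1 and 50.4 with vehicle (−0.30 ± 0.58). Gzmc overlapped as well, with 17.9 and 47.7 with RA, against 15.7 and 86.6 with vehicle (−0.33 ± 0.68). Gzmd, Gzme, Gzmf, Gzmg and Gzmn were all below the filter. Of the 8, 3 were higher and 5 overlapped, against 13.8% higher over all genes. The other two that were higher, Gzmf and Gzmn, were below the filter.

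**Figure D4:**
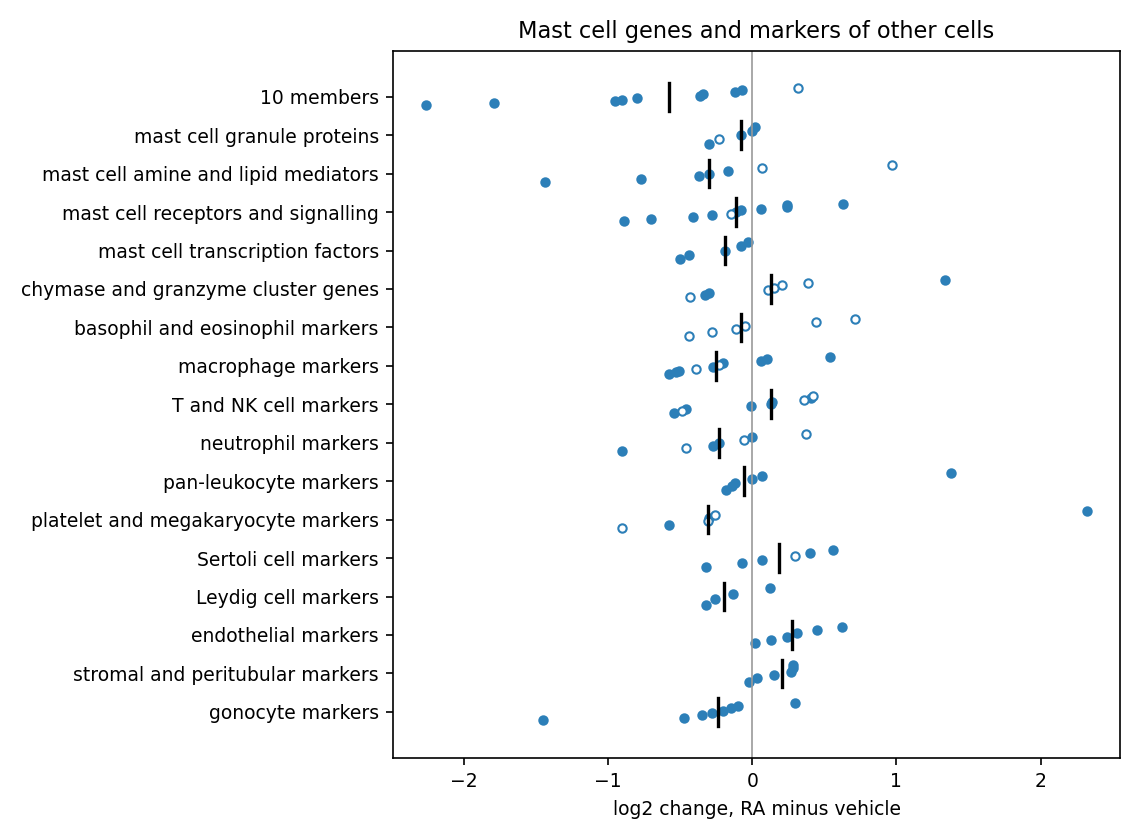
Log2 change (RA minus vehicle) of the 10 members and of the genes of each list, read from the brightest probe set, with open circles for genes below the signal filter and a black bar for each list's median. Mcpt1, which chose the set, lies at −2.26 and the members' bar at −0.58; without Mcpt1 their median is −0.36, and the bars of the other lists lie between −0.31 and 0.28.

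Markers of other blood cells were read beside the mast cell genes. Summed signals of 10 macrophage markers were 943 and 1877 with RA, against 1104 and 2169 with vehicle, and those of 6 pan-leukocyte markers were 1665 and 3187 with RA, against 1916 and 2997 with vehicle. The 7 neutrophil markers summed to 1289 and 2723 with RA, against 1664 and 3043 with vehicle. Replicate 2 exceeded replicate 1 in both groups on these 3 sums, as for the mast cell genes. By gene this held for 9 of 10 macrophage, 6 of 6 pan-leukocyte and 4 of 7 neutrophil markers. It held too for the sums of the T and NK cell, platelet, Sertoli, Leydig and stromal lists. It did not hold for those of the endothelial, gonocyte, and basophil and eosinophil lists. By gene it held for 5 of 6 stromal, 6 of 9 T and NK cell and 3 of 6 endothelial markers. It held for 2 of 6 Sertoli, 2 of 4 Leydig and 2 of 6 platelet markers, against 30.5% of all genes. Outside blood cells the pattern was thus seen gene by gene mainly in the stromal list, and sums can rest on a few bright genes. The 9 T and NK cell markers measured summed to 344 and 439.9 with RA, against 374 and 399 with vehicle. The 6 platelet markers summed to 266 and 297 with RA, against 192 and 337 with vehicle. Of these Ppbp, a platelet chemokine, had 162 and 51.9 with RA, against 20.2 and 10.1 with vehicle (log2 change 2.32 ± 0.52; unadjusted p = 0.00216 and adjusted p = 1 in limma), and the other 5 had negative log2 changes. Of the pan-leukocyte markers, 0 were lower, 1 was higher and 5 overlapped, and of the macrophage markers 1 was lower and 9 overlapped, against 13.6% lower and 13.8% higher over all genes. The part of leukocyte numbers in the changes above was not tested.

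Of the markers of the labelled cells, 8 of 8 gonocyte markers were above the filter, as were 13011 of all 18193 genes. So were 6 of 6 endothelial, 6 of 6 stromal, 4 of 4 Leydig and 5 of 6 Sertoli cell markers measured, so the filter does not tell these cells apart. The stromal marker Acta2 had 2218 and 3339 with RA, against 2059 and 2467 with vehicle. Ddx4, a germ cell RNA helicase, had 1299.8 and 1121 with RA, against 1305 and 1289 with vehicle. Thy1, the protein used for sorting, had 265 and 141 with RA, against 329 and 168 with vehicle. Replicate 2 was the lower for both genes in both groups. Zbtb16, a transcription factor of undifferentiated male germ cells, had 368 and 174 with RA, against 701 and 699 with vehicle (log2 change −1.45 ± 0.33; unadjusted p = 0.00228 and adjusted p = 1 in limma). Lin28a, an RNA-binding protein gene, had 262 and 254 with RA, against 385 and 335 with vehicle (−0.47 ± 0.19; unadjusted p = 0.0426 and adjusted p = 1 in limma). Dimmer probe sets of Zbtb16 changed less, by −0.63 and, with the groups overlapping, by −0.21. Of the 8 gonocyte markers 3 were lower and 5 overlapped, against 13.6% lower over all genes, with a median of −0.24. Replicate 2 was brighter in both groups for 1 of the 8, Sall4, with 2311 and 3776 with RA, against 2268 and 2530.4 with vehicle. Medians were 0.18 for 6 Sertoli cell, −0.20 for 4 Leydig cell, 0.28 for 6 endothelial and 0.21 for 6 stromal markers. The 3' over 5' signal ratio, which tracks how intact the amplified RNA was, stood at 2.08 and 2.32 for Actb with RA, against 1.72 and 1.73 with vehicle. For Gapdh it was 1.85 and 2.00 with RA, against 1.56 and 1.47 with vehicle. Its part in the changes of Mcpt1 and the other members was not tested. Also not tested was hybridisation of related chymase transcripts to each other's probes.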

How the data were processed

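Amplification used the Ovation system, version 2, from 75 ng of RNA, and GCOS 1.2 read the arrays, per the labels. The authors deposited linear intensities, with a value for each probe set; the summary of probes and the scaling are not given in the sources used here. With 2% of values trimmed from each tail the mean was 125 on all 4 arrays, and no normalization was added. Groups and replicate numbers came from the labels.

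Gene names came from GEO's platform annotation, and Entrez IDs linked 34741 probe sets to current symbols in the RefSeq table of GRCm38.p6. The 932 probe sets with several genes and 9160 with none were not named. After 64 control probe sets were left out, 45037 remained. Values were taken as log2(intensity + 5), where 5 is the rounded 20th percentile, and 27022 probe sets passed the filter at the 40th percentile. RA was compared with vehicle in limma 3.58.1 (R 4.3.3, eBayes with trend, two-sided, Benjamini-Hochberg over 27022), with 2 residual and 5.81 prior degrees of freedom. The fit was run on simulated arrays with independent noise of equal spread for all probe sets. In these data same-numbered arrays deviated together, so that run does not show how the fit performs on them. Genes were read from their brightest probe set. The members, lists and tests were chosen with earlier results of these data known. The rule named all members, up to 3 genes per list with the smallest p, all measured cluster genes and the 5 genes most like Mcpt1. Lists of other cell types are given mostly by counts and sums. Further examples, such as Srgn, Ddx4, Thy1 and Ltc4s, were chosen after their values were seen. Alternatives covered normalization, pseudocount, filter, variance model, the replicate number, each array and probe set averaging. Promoter windows were aligned with Biopython 1.88 (match 2, gap opening −5) in Python 3.11.15; matplotlib 3.10.9 made the plots.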

Additional observations from a re-analysis of the deposited data

How the results depend on the processing

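Of 14 alternatives, none changed the sign of Mcpt1 (log2 change −2.06 with a pseudocount of 20 and −2.48 to −2.05 with 1 array left out). Leaving out an array could not change it, because both RA signals of Mcpt1 lay below both vehicle signals. The median of the other 9 members lay between −1.25 and 0.37 with 1 array left out, and its sign therefore depended on the arrays. The difference of Mcpt1 from that median lay between −2.53 and −1.19. The count of members with both RA arrays below both vehicle arrays was 4, 3 with equal array medians, where Mcpt4 overlapped, and 4 to 10 with 1 array left out, which makes separation easier. It was 10 without RA replicate 2 and 7 without vehicle replicate 1. Replicate 2 was the brighter in both groups for 10 of 10 genes, so either omission widens the gap for all of them together. The shares over all genes in these settings are not given here, so these counts are not read as a result about the members. Tpsb2 stood at 0.02 with equal array medians. With 1 array left out the changes lay between −0.91 and 0.67 for Cma1, −1.27 and 0.54 for Cpa3, −0.48 and 1.13 for Fcer1a, −1.05 and 0.37 for Mcpt2 and −1.03 and 0.89 for Tpsb2.

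The number of members other than Mcpt1 past an adjusted p of 0.05 in limma was 0, between 0 and 3 with 1 array left out (3 without RA replicate 2) and 3 with the replicate number as a block. The labels do not say that the numbers pair samples. Same-numbered arrays deviated together (r = 0.555 across 13011 genes, which are not independent replicates). With this replicate block, which left 1 residual degree of freedom and an unbounded prior, the 3 were Mcpt4 (limma, adjusted p = 9.44e-05), Ms4a2 (9.2e-08) and Hdc (0.00225). In the same fit Mcpt8 had 0.0686, Cpa3 0.481, Mcpt2 0.609, Cma1 0.93 and Tpsb2 0.968. Ms4a2 and Mcpt8 passed the filter through their vehicle arrays, so their p-values with the block add no support either. Over all probe sets that block called 322 lower and 221 higher, and the fit without it called 0. Without RA replicate 1 there were 49 lower and 45 higher, without RA replicate 2 there were 116 and 57, and without vehicle replicate 1 there were 0 and 1. The causes were not tested. Dim signals limit Fcer1a, Mcpt8 and Ms4a2.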

Other observations

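The pseudogene Mcpt-ps1 lies between Cma1 and Cma2 in the same protease cluster. Its probe set had signals of 9.9 and 5.17 with RA, against 13.6 and 37 with vehicle, a log2 change of −1.18. The groups did not overlap, as for 13.6% of all genes that were lower, but the mean log2 signal was below the filter, so no p was computed. Itgb2, an integrin chain of leukocytes, was higher on both RA arrays, with 80 and 148 with RA, against 29.7 and 50.2 with vehicle (log2 change 1.38 ± 0.38; limma, adjusted p = 1). Ngp, a neutrophil granule protein gene, had 25.1 and 46.2 with RA, against 51.2 and 90.7 with vehicle (−0.90 ± 0.39; limma, adjusted p = 1).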
